A study of Homo sapiens with 8 samples.

Results

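Changes in gene expression across the transcriptome were examined in HEK293T cells that received dCas9-VPR, relative to cells that received the dCas9 + MCP-mCherry control (Control). HEK293T is an established human embryonic kidney cell line. RNA-seq was done in duplicate at 72 h post-transfection, and the comparison used the 2 dCas9-VPR and the 2 Control libraries of the 8 libraries in the series. The other 4 libraries, 2 of CRISPR-DREAM, in which MCP-MSN is recruited to dCas9, and 2 of SAM, in which MCP-p65-HSF1 is recruited to dCas9-VP64, entered the same fit and were used to show where dCas9-VPR differed. All groups were given 4 pooled gRNAs (125 ng) that target the fetal globin genes *HBG1* and *HBG2*, so Control was not an untargeted control. dCas9-VPR cells received 1 plasmid (375 ng) that encodes dCas9 fused directly to VPR, and Control cells received dCas9 and MCP-mCherry plasmids (187.5 ng each) with gRNAs carrying MS2 loops. The activation domain, the MCP-mCherry protein and the plasmid mixture therefore differed together between both groups and cannot be told apart. The methods do not say whether the gRNAs given with dCas9-VPR also carried MS2 loops, so the gRNA scaffold may have differed as well. The labels do not say whether replicates were separate cultures, so p values measure only the spread between these libraries.

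dCas9 is a Cas9 protein that binds DNA at sites chosen by a gRNA but does not cut it. VPR joins 3 activation domains, VP64 (from a herpesvirus protein), p65 (from the NF-κB subunit encoded by *RELA*) and Rta (from a gammaherpesvirus), which recruit coactivators and the transcription machinery to a promoter. *HBG1* and *HBG2* encode the gamma chains of fetal hemoglobin and are normally silent in kidney cells.

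Levels are given as the CPM values that the authors deposited, in which the reads of a gene are scaled to a common library total. The fit was made with limma after adding 0.5 CPM and taking log2, so fold changes of genes with low values are understated. Adjusted p is the Benjamini-Hochberg value over the 15122 genes that reached 1 CPM in 2 or more libraries. A gene was called risen or fallen at a fold change above 2 with a false discovery rate (FDR) below 0.05. The CPM step of 1 read, read from the lowest values, was 0.0319 and 0.0326 in Control and 0.0286 and 0.0321 with dCas9-VPR, so depth was similar. Over the 9799 genes whose mean reached 10 CPM, the log2 difference between replicates had an SD of 0.136 in Control and 0.115 with dCas9-VPR. Of the genes HEK293 cells are known to express, 11 of 12 were matched and 10 or 11 were at 1 CPM or more in each library. Ribosomal RNA was at 29.2 and 26.2 CPM in Control and at 179 and 51.2 CPM with dCas9-VPR, and its part in the results below was not tested.

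With dCas9-VPR, 70 genes rose (0.463% of the genes tested) and 97 fell (0.641%). Beyond the globin locus, the rises included calcium-binding S100 proteins, matrix and cell-surface proteins, immune genes and striated muscle genes. The falls included noncoding and pseudogene loci, genes of the integrated stress response, the kinase gene *PLK2* and host genes of small nucleolar RNAs. The lists of striated muscle genes, of small nucleolar RNA host genes and of some immune genes were chosen after values were seen. So were the groupings by gene type and by readthrough locus. Striated muscle genes also gave 2 of the falls. All 70 rises were also above 0 with CRISPR-DREAM and with SAM, relative to the same Control libraries. Of the 97 falls, 94 were below 0 with both. The dCas9-VPR and Control libraries did not overlap for any of the rises and falls, as for 9817 (64.9%) of all genes tested. Few changes were at high expression. Group means of 10 CPM or more on both sides were found for 3 rises and 7 falls, and 29 of the 70 rises and 34 of the 97 falls stayed under 3 CPM on both sides. When 2-fold itself was the null value, 6 genes were higher and 10 lower. The median log2 fold change of all tested genes was 0.06, and 0.01 under median-of-ratios scaling. The balance of higher and lower genes therefore depends in part on scaling. By FDR alone, and as the shares to set beside the lists below, 1656 genes were higher (11.0%) and 1010 were lower (6.68%). These last counts rest on every library, since leaving out 1 library gave 272 to 1265 higher and 246 to 632 lower genes, with the lowest counts without dCas9-VPR replicate 1.

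**Figure D1:**
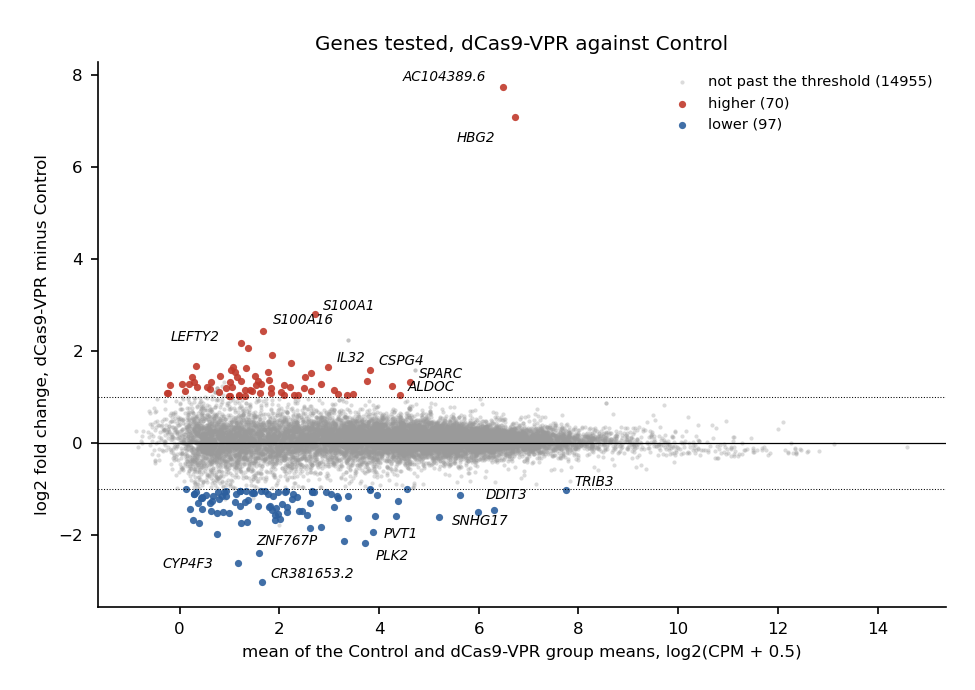
Each point is 1 of the 15122 genes tested, with the mean of both group means on a log2 scale on the horizontal axis and the log2 fold change of dCas9-VPR relative to Control on the vertical axis. Red points are the 70 rises and blue points the 97 falls, dotted lines mark a fold change of 2, and 2 genes at the globin locus (*AC104389.6* at 7.73 and *HBG2* at 7.09) stand far above the rest.

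The targeted locus on chromosome 11 held the largest changes. *HBG2* (minus strand, hg38 chr11:5253188-5505605) was at 1.29 and 0.838 CPM in the Control libraries and at 218 and 201.3 CPM with dCas9-VPR. The log2 fold change was 7.09 (standard error 0.17, limma adjusted p = 2.94e-06). *HBG1* (minus strand, chr11:5248269-5249857) was listed at 0 in both Control libraries and was at 0.385 and 0.548 CPM with dCas9-VPR. Its limma adjusted p was 0.0234, and among the alternatives it was called only with a pseudocount of 0.1. *AC104389.6* is annotated as protein coding at chr11:5248270-5254783 and overlaps both genes. It was at 0.206 and 0.488 CPM in Control and at 187 and 167 CPM with dCas9-VPR (log2 fold change 7.73, limma adjusted p = 2.94e-06). *HBG1* and *HBG2* are near-identical and *AC104389.6* overlaps both, so the division of reads among them is uncertain. Added together, *HBG1* and *HBG2* were at 1.06 ± 0.32 CPM (SD, n = 2) in Control and 210.2 ± 11.9 CPM (SD, n = 2) with dCas9-VPR. *AC104389.5*, which overlaps *HBG2*, also rose, from 0.0377 and 0.184 CPM to 0.966 and 0.946 CPM (log2 fold change 1.26, limma adjusted p = 0.00186). The embryonic globin gene *HBE1* was at 0.766 and 1.20 CPM in Control and at 0.372 and 0.449 CPM with dCas9-VPR and was not past the threshold (limma adjusted p = 0.0927). The other genes tested within 500 kb (*HBBP1*, *TRIM5*, *TRIM6* and *TRIM22*) had log2 fold changes between 0.06 and 0.24, none past the threshold.

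Genes for S100 proteins, small calcium-binding proteins that modulate many target proteins, gave the next largest rises. *S100A1* (chr1:153627926-153632039), which acts on calcium handling in muscle, was at 1.12 and 1.18 CPM in Control and at 10.7 and 11.1 CPM with dCas9-VPR. The mean was 9.51-fold higher (log2 fold change 2.79, standard error 0.16, limma adjusted p = 1.17e-05). Its neighbour *S100A16* (chr1:153606886-153613145) went from 0.351 and 0.652 CPM to 4.89 and 4.81 CPM, 9.68-fold in the means (log2 fold change 2.43, limma adjusted p = 1.34e-05). In both genes the replicates of each group lay close together compared with the gap between the groups. Of the 6 S100 genes of chromosome 1 that were tested, 5 were higher at an FDR below 0.05 and 0 were lower. The other 3 were *S100A13* (log2 fold change 0.69), *S100A10* (0.38) and *S100A11* (0.24), and *S100A4* (0.44) did not pass.

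Several of the other large rises encode secreted or membrane proteins. *LEFTY2*, a secreted inhibitor of Nodal signaling, was at 0.313 and 0.412 CPM in Control and at 3.66 and 3.04 CPM with dCas9-VPR (log2 fold change 2.15, limma adjusted p = 7.75e-05). *B3GNT8*, which encodes an enzyme that extends N-glycans, went from 0.734 and 0.326 CPM to 3.63 and 3.72 CPM (log2 fold change 2.05). *CD68*, a lysosomal membrane protein that is abundant in macrophages, went from 1.45 and 0.684 CPM to 5.62 and 4.74 CPM (log2 fold change 1.90). *CD14*, another marker of monocytes, fell from 0.893 and 1.04 CPM to 0.229 and 0.225 CPM, and 5 of 12 leukocyte markers were matched in the files with a sum of 4.53 to 5.09 CPM in Control and 8.94 CPM in each dCas9-VPR library, of which *CD68* was the larger part. The call of *CD14* was lost with any 1 of the 4 libraries left out (limma adjusted p of 0.101 to 0.228). The pseudogene *WFDC21P* rose from 1.54 and 1.78 CPM to 6.57 and 6.81 CPM (log2 fold change 1.74). *IL32*, which encodes a secreted cytokine and was the only risen member of 20 tested NF-κB target genes, went from 3.29 and 3.36 CPM to 11.8 and 11.2 CPM (log2 fold change 1.65, limma adjusted p = 1.72e-05).

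**Figure D2:**
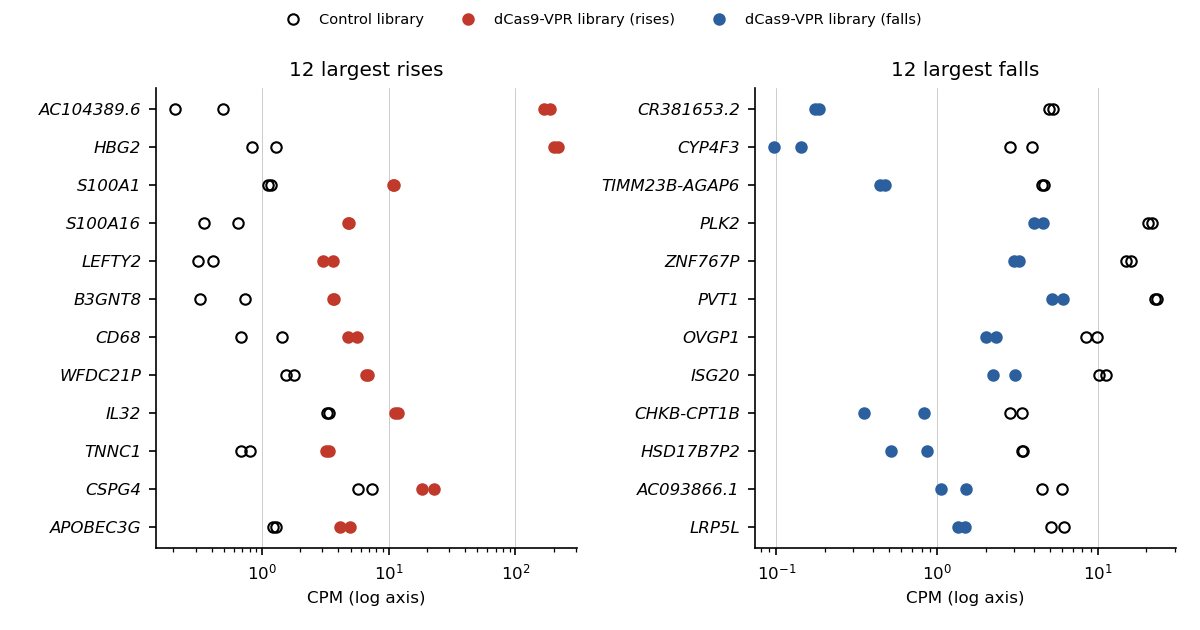
CPM on a log axis in each Control library (open circles) and each dCas9-VPR library (filled circles) for the 12 largest rises (left) and the 12 largest falls (right) for which either group mean reached 3 CPM. In each of the 24 genes the pair of dCas9-VPR libraries lies wholly on 1 side of the pair of Control libraries, which the choice of genes required and which held for 64.9% of all genes, from *HBG2* at 218 and 201.3 CPM down to *CYP4F3* at 0.143 and 0.0964 CPM with dCas9-VPR.

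Among matrix genes, single genes rose and collagen genes were more often higher than lower. The extracellular matrix is the meshwork of collagens, laminins and glycoproteins that cells secrete around themselves. *SPARC*, a collagen-binding matricellular protein, was at 13.4 and 13.9 CPM in Control and 34.2 and 35.2 CPM with dCas9-VPR (log2 fold change 1.31, limma adjusted p = 6e-05). *CSPG4*, a cell-surface proteoglycan, rose from 7.35 and 5.70 CPM to 22.9 and 18.2 CPM (log2 fold change 1.58). Named after their values were seen, the matrix genes *FBLN2* (1.51), *MXRA8* (1.42) and *ADAMTSL4* (1.37) rose as well. Of 25 collagen genes tested, 11 were higher and 0 lower at an FDR below 0.05, with a median log2 fold change of 0.35 relative to 0.06 for all genes, and none was past a fold change of 2. They included the fibrillar *COL5A1* (0.83) and *COL1A1* (0.67), the basement membrane *COL4A1* (0.41) and *COL4A2* (0.49), and the microfibrillar *COL6A1* (0.52). *COL6A1* was at 80.2 and 67.9 CPM in Control and at 110 and 101 CPM with dCas9-VPR. Among 27 laminin and integrin genes 5 were higher and 0 lower (median 0.15), compared with 11.0% higher among all genes, led by *ITGB3* (0.91) and *LAMA5* (0.60). The count for collagens fell to 2 without Control replicate 2 or without either dCas9-VPR library, as the count of all higher genes also fell.

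Immune genes moved in both directions. Antigen presentation, in which proteasome-cut peptides are loaded on HLA proteins, was represented by 20 tested genes in a list chosen after values were seen, and 11 were higher and 0 lower at an FDR below 0.05 (median 0.35). The immunoproteasome subunit gene *PSMB9* went from 0.702 and 0.978 CPM to 2.78 and 2.92 CPM (log2 fold change 1.33), and *HLA-DMA*, whose product helps load class II molecules, from 2.55 and 3.26 CPM to 5.89 and 7.09 CPM (1.04). The HLA-region noncoding RNA *HCP5*, which is also counted in this list although it encodes no protein, went from 6.85 and 7.51 CPM to 17.9 and 19.9 CPM (1.34). The class I gene *HLA-B* (0.22) and the light chain gene *B2M* (0.32) were higher by smaller amounts. HLA genes are close in sequence, so reads may be divided among them. *APOBEC3G*, a cytidine deaminase that restricts retroviruses, rose from 1.29 and 1.21 CPM to 4.96 and 4.15 CPM (log2 fold change 1.52, limma adjusted p = 0.000179), and 5 of 6 tested members of its family were higher, also a list chosen after values were seen. The nuclear coactivator gene *HELZ2* rose from 11.4 and 10.6 CPM to 29.4 and 23.6 CPM (1.23), and *STING1*, a sensor of cytosolic cyclic dinucleotides, from 1.5 and 1.14 CPM to 4.04 and 3.72 CPM (1.27). The count for antigen presentation ranged from 4 to 8 with 1 library left out, lowest without dCas9-VPR replicate 2.

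Interferon-stimulated genes were mixed, with 7 higher and 2 lower of 22 tested (median 0.21). These were 31.8% and 9.09%, compared with 11.0% and 6.68% of all genes. *ISG20*, an exonuclease that degrades RNA, fell from 10.1 and 11.2 CPM to 3.06 and 2.21 CPM (log2 fold change -1.84, limma adjusted p = 0.000108). *IFI27* fell from 4.05 and 4.30 CPM to 1.52 and 1.83 CPM (-1.11). The higher members included *BST2* (0.92), which tethers virus particles to the cell, *IRF9* (0.79), a transcription factor of the interferon response, and the antiviral *IFITM3* (0.63). None of the genes for the 5 NF-κB subunits passed. *RELA*, the source of the p65 domain in VPR, was at 49.3 and 45.4 CPM in Control and at 48.5 and 51.0 CPM with dCas9-VPR (log2 fold change 0.07, limma adjusted p = 0.508), and the 5 log2 fold changes lay between -0.01 and 0.21, those of *NFKB1*, *NFKB2* and *RELB* so near 0 that their sign depended on the setting. Of 20 NF-κB target genes, 4 were higher and 2 lower (20% and 10%, median 0.05).

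Genes of striated muscle, the contractile tissue of heart and skeleton, also moved in both directions. In this list of 15 tested genes, chosen after values were seen, 6 rose and 2 fell. *TNNC1*, the calcium sensor of slow and cardiac muscle, went from 0.798 and 0.685 CPM to 3.41 and 3.18 CPM (log2 fold change 1.61, limma adjusted p = 0.000601). *DES*, the intermediate filament desmin, went from 0.479 and 0.554 CPM to 2.20 and 3.18 CPM (1.63). The other risen members were *SGCA*, *FABP3*, *PYGM* and *STAC3* (1.08 to 1.25), all at means below 4 CPM. The sarcomere genes *ACTN2* (-1.47) and *MYPN* (-1.06) fell, *ACTN2* from 4.34 and 5.28 CPM to 1.32 and 1.51 CPM. Actin and other targets of the transcription factor SRF, which responds to actin dynamics, were more often higher than lower, 8 and 1 of 20. They included *FLNA* (0.61), *ACTA2* (0.78) and *ACTB* (0.39), and the count of higher members was 3 without Control replicate 2 or without either dCas9-VPR library.

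Metabolic lists differed in direction. Of 19 glycolysis genes, whose enzymes and transporters turn glucose into pyruvate and lactate, 10 were higher and 0 lower at an FDR below 0.05 (median 0.23). *ALDOC*, an aldolase isozyme, went from 14.0 and 13.1 CPM to 28.0 and 28.1 CPM (log2 fold change 1.03, limma adjusted p = 0.000223) and was just past a fold change of 2, a position it lost under median-of-ratios scaling (0.97) and without Control replicate 2 (0.98). The glucose transporter genes *SLC2A1* (0.56) and *SLC2A3* (0.52) and the lactate dehydrogenase gene *LDHA* (0.34) were higher, the last from 722 and 686 CPM to 872 and 911 CPM. With 1 library left out the count was 5 to 9, and 5 in all but 1 case. Of 23 genes of sterol synthesis and uptake, 1 was higher and 5 were lower (median -0.01). These were 4.35% and 21.7%, compared with 11.0% and 6.68% of all genes. Of 4 metallothionein genes, which respond to metal ions, *MT1X* (0.92), *MT2A* (0.74) and *MT1F* (0.67) were higher. Of 20 lysosome genes 7 were higher and 3 lower (35% and 15%, median 0.14). The 13 genes of the mitochondrial genome had log2 fold changes between 0.34 and 0.62 and none passed.

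Genes of the integrated stress response were lower. In this pathway, kinases that sense amino acid shortage, unfolded proteins or viral RNA phosphorylate eIF2-alpha, the translation of *ATF4* increases, and ATF4 together with C/EBP partners switches on genes of amino acid supply and of stress signaling. Of 26 genes, 12 were lower and 0 higher at an FDR below 0.05, and the median log2 fold change was -0.23 relative to 0.06 for all genes. *DDIT3* (chr12:57516588-57521737), which encodes the transcription factor CHOP, was at 87.6 and 97.9 CPM in Control and at 31.8 and 32.6 CPM with dCas9-VPR. Its log2 fold change was -1.51 (standard error 0.08, limma adjusted p = 9.38e-06). *TRIB3*, a pseudokinase gene induced by ATF4 and CHOP, fell from 289 and 290 CPM to 146 and 137 CPM (-1.03, limma adjusted p = 1.72e-05), and *FGF21*, a secreted metabolic hormone, from 4.43 and 5.15 CPM to 2.23 and 1.83 CPM (-1.07). *TRIB3* and *FGF21* lay close to a fold change of 2 and were at -0.98 and -0.95 without dCas9-VPR replicate 2. Lower by less than a fold change of 2 were *PPP1R15A* (-0.72), the eIF2-alpha phosphatase subunit, *CHAC1* (-0.57), which degrades glutathione, *CEBPG* (-0.40), a C/EBP partner of ATF4, and *ATF4* itself (-0.26). Among the amino acid synthesis genes, *SHMT2* (-0.23) passed, whereas *ASNS* (-0.12), *PHGDH* (-0.10) and *PSAT1* (-0.06) did not.

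DNA sites for ATF4 with C/EBP partners contain the letters TGATGNAA, and RefSeq promoter windows (GRCh38.p14) of 250 bases before the gene start were searched for them on both strands. Of the 26 genes, 21 had a window and 4 of these held the letters in at least 1 window, among 1061 of 27305 gene symbols in all (3.89%). Those of *FGF21* (chr19:48755274-48755523), *CHAC1* (chr15:40953221-40953470) and *CEBPG* (chr19:33373863-33374112), all lower with dCas9-VPR and all on the plus strand, are shown with the matched letters in capitals. The match in *FGF21* starts 54 bases before the gene start and that in *CHAC1* 209 bases before, both on the opposite strand, and that in *CEBPG* starts 42 bases before. The fourth is *ASNS*, which did not pass and is not shown. *DDIT3* and *TRIB3*, which fell past a fold change of 2, were not among the 4. Genes without a window and bases outside the 250 were not searched, so this does not show that *DDIT3* and *TRIB3* lack the letters. A match describes the sequence and was not tested for binding.
FGF21: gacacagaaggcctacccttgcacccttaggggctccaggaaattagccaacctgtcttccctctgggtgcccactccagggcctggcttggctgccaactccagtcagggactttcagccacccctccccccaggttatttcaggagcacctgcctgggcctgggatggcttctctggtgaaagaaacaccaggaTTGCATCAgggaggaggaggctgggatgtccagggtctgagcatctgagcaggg
CHAC1: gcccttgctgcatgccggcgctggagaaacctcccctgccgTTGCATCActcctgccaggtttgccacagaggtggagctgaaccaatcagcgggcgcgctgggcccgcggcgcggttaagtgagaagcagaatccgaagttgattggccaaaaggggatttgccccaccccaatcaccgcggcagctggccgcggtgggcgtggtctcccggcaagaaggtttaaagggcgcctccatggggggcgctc
CEBPG: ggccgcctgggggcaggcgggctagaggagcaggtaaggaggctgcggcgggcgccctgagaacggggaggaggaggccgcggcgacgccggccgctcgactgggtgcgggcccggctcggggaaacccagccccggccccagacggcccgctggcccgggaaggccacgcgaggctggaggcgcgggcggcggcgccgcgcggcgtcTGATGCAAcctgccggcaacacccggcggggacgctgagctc

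Genes with related roles were lower too. *INHBE*, a secreted activin subunit gene that responds to the same kinase pathway, fell from 60.4 and 74.0 CPM to 29.9 and 30.5 CPM (log2 fold change -1.13, limma adjusted p = 0.000133) and was just inside a fold change of 2 without Control replicate 2 (-0.99). *ZFAND2A*, an arsenite-induced regulator of the proteasome, fell from 26.8 and 31.4 CPM to 11.4 and 12.2 CPM (-1.27). *MAFF*, a small MAF transcription factor gene named after its values were seen, fell from 11.3 and 12.5 CPM to 3.98 and 4.33 CPM (-1.41). Of the 20 genes for cytosolic aminoacyl-tRNA synthetases, which charge tRNAs with amino acids, 6 were lower and 0 higher (median -0.09). They were led by *CARS1* (-0.60) and *SARS1* (-0.49), the latter going from 702 and 732 CPM to 510 and 511 CPM, and 2 were lower without dCas9-VPR replicate 2. By contrast, among 20 genes of the unfolded protein response of the endoplasmic reticulum 1 was higher and 2 were lower (5% and 10%, median 0.00). Among 25 heat shock and chaperone genes 2 were higher and 4 lower (8% and 16%, median 0.02). The shares of all genes were 11.0% and 6.68%. The chaperone gene *CRYAB* rose from 3.04 and 1.66 CPM to 6.10 and 5.74 CPM (1.21), which did not pass without dCas9-VPR replicate 1 (limma adjusted p = 0.0557) and was below a fold change of 2 without Control replicate 2. The count for the integrated stress response was 7 without Control replicate 2 and 7 without dCas9-VPR replicate 1.

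Host genes of small nucleolar RNAs (SNHG genes and *GAS5*) carry the guides for rRNA modification in their introns, and their spliced transcripts are known to be turned over by nonsense-mediated decay. In this list of 23 tested genes, chosen after values were seen, 4 fell, 13 were lower and 0 higher at an FDR below 0.05, and the median was -0.40. *SNHG17* (chr20:38419638-38435409) was at 52.6 and 57.4 CPM in Control and at 18.0 and 17.3 CPM with dCas9-VPR (log2 fold change -1.61, standard error 0.09, limma adjusted p = 1.10e-05). *SNHG15* (chr7:44983023-44986961) went from 110 and 120 CPM to 42 and 40.6 CPM (-1.47, limma adjusted p = 2.94e-06), and *SNHG12* from 29.5 and 30.8 CPM to 9.62 and 9.56 CPM (-1.60). *SNHG9* (-1.42) was the fourth, and *SNHG1* (-0.89), *SNHG7* (-0.78) and *GAS5* (-0.58) were lower by less. *GAS5* went from 732 and 834 CPM to 517 and 527 CPM. The only member above 0 was *SNHG16* (0.11). Without Control replicate 2 the count of lower members was 8.

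Cytosolic ribosomal protein genes were lower by small amounts, 36 of 85 at an FDR below 0.05 and 0 higher (median -0.16), with the lowest at *RPL11* (-0.33) and *RPS15A* (-0.33). These genes made up 19.6% and 20.8% of all CPM in Control and 17.8% and 18.1% with dCas9-VPR. That count was smaller whenever 1 library of either group was left out, and by how much depended on which library. Of 36 proteasome subunit genes 8 were lower, and *PSMB9* of the immunoproteasome was the only one higher (median -0.07).

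**Figure D3:**
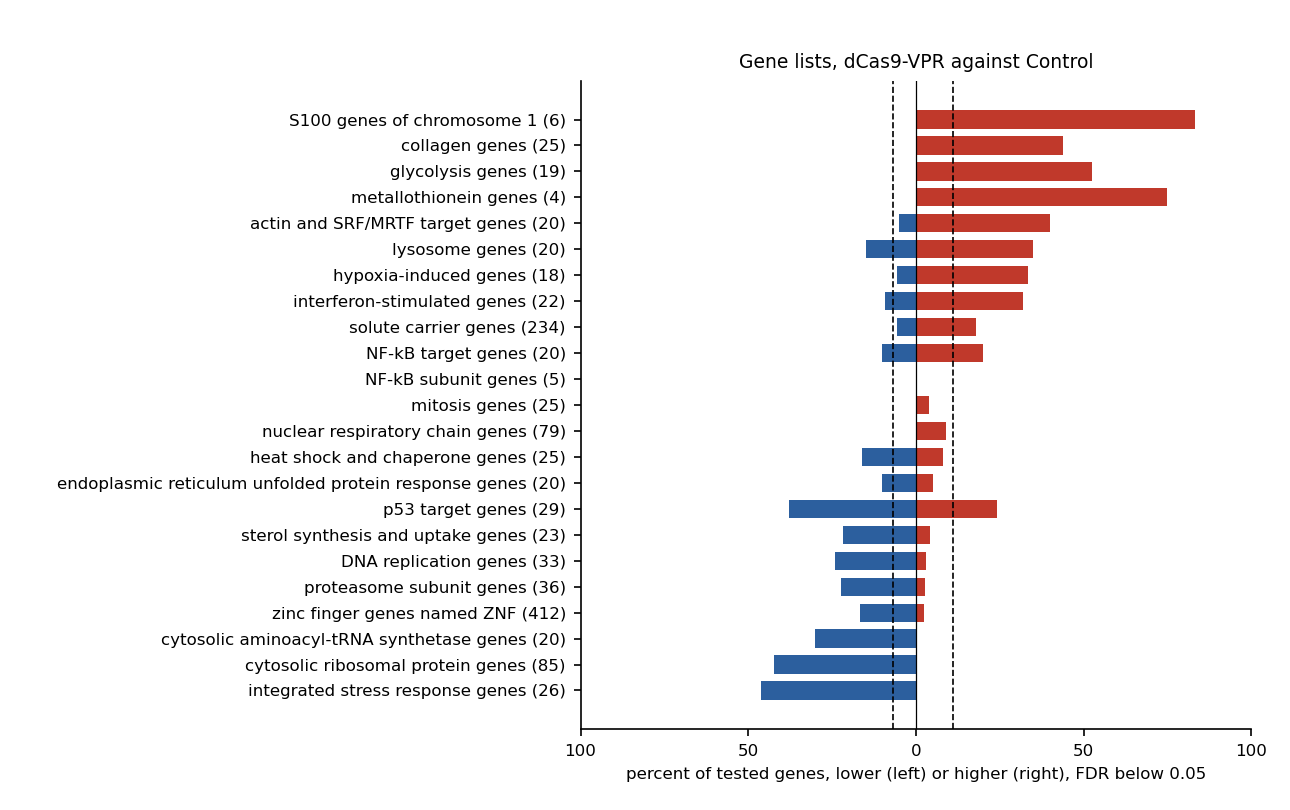
Percent of the tested genes of each list that were higher (red, right) or lower (blue, left) with dCas9-VPR than in Control at an FDR below 0.05, with the number of genes tested in parentheses. Dashed lines mark the shares among all genes (11.0% higher and 6.68% lower), and the integrated stress response and ribosomal protein lists extend only to the left and the collagen and glycolysis lists only to the right.

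p53 is a transcription factor that induces growth arrest and apoptosis genes after DNA damage. Of 29 p53 targets in a list, none fell past a fold change of 2, 1 rose, and 11 were lower and 7 higher at an FDR below 0.05 (median -0.14). *PLK2* (chr5:58453982-58460139), a stress-induced polo-like kinase gene and known p53 target outside that list, is named here for the size of its fall. It was at 21.6 and 20.5 CPM in Control and at 3.98 and 4.52 CPM with dCas9-VPR. The Control mean was 4.95 times the dCas9-VPR mean (log2 fold change -2.18, standard error 0.12, limma adjusted p = 9.38e-06). The noncoding gene *PVT1*, next to *MYC*, fell from 23.2 and 22.5 CPM to 5.15 and 6.03 CPM (-1.94, limma adjusted p = 1.72e-05). The lower list members included *DDB2* (-0.85), a DNA damage recognition factor, *AEN* (-0.84), an apoptosis nuclease, and the proapoptotic *BBC3* (-0.69) and *PMAIP1* (-0.53). The higher ones included *TP53I3* (1.14), an oxidoreductase gene that went from 4.85 and 4.76 CPM to 12.3 and 10.2 CPM, the antiproliferative *BTG2* (0.73) and the cell cycle inhibitor gene *CDKN1A* (0.23), while *MDM2* was at 0.00. With 1 library left out, 6 to 8 were lower and 2 to 5 higher, and median-of-ratios scaling left 4 higher.

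The other large falls were in single genes of unlike function. *CYP4F3*, a leukotriene and fatty acid hydroxylase gene, went from 3.89 and 2.84 CPM to 0.143 and 0.0964 CPM (log2 fold change -2.63, limma adjusted p = 6.72e-05), and *CYP4F2* from 2.94 and 1.47 CPM to 0.315 and 0.0322 CPM (-1.98). Both lie on chromosome 19 (chr19:15640897-15662825 and chr19:15878023-15898077) and are similar in sequence, so reads may be divided between them. *OVGP1*, a secreted glycoprotein of the oviduct, fell from 8.42 and 9.85 CPM to 2.0 and 2.31 CPM (-1.86), and *LRP5L* from 6.12 and 5.09 CPM to 1.49 and 1.35 CPM (-1.67). *KCNN4*, a calcium-activated potassium channel gene, fell from 1.60 and 1.08 CPM to 0.0287 and 0.0964 CPM (-1.69). Among 52 channel genes 9 were higher and 6 lower at an FDR below 0.05 (17.3% and 11.5%, compared with 11.0% and 6.68% of all genes). In this list 2 rose, *SCN4B* (1.26) and *CACNG6* (1.11). *NLRP1*, an inflammasome sensor gene named after its values were seen, fell from 1.24 and 1.78 CPM to 0.115 and 0.0643 CPM (-1.76). The cadherin gene *CDH18* fell (-1.23), and the claudin gene *CLDN4* (1.09) and the receptor kinase gene *AXL* (1.32) rose, the last 2 not past an FDR of 0.05 with some libraries left out (up to 0.147 for *CLDN4* and 0.0838 for *AXL*).

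The annotated gene types of the rises and falls, a grouping chosen after values were seen, differed in number. Protein-coding genes made up 65 of the 70 rises and 66 of the 97 falls, of 13251 tested. Long noncoding RNA genes gave 4 rises and 16 falls of 1174, and pseudogenes 1 rise and 15 falls of 626. Readthrough loci, picked by names that join 2 gene names and also chosen after values were seen, gave 0 rises and 8 falls of 82. They are not a separate annotated type, and their falls are already counted in the types above. *CR381653.2*, an unprocessed pseudogene on chromosome 21 (chr21:9369285-9376645), had the largest fall, from 5.27 and 4.92 CPM to 0.185 and 0.174 CPM (log2 fold change -3.04, limma adjusted p = 1.34e-05). *ZNF767P*, a zinc finger pseudogene, went from 16.1 and 15 CPM to 3.25 and 3.0 CPM (-2.15), and *HSD17B7P2* from 3.36 and 3.43 CPM to 0.514 and 0.865 CPM (-1.73). *TIMM23B-AGAP6* (-2.40) was at 4.45 and 4.63 CPM in Control and at 0.439 and 0.472 CPM with dCas9-VPR, *CHKB-CPT1B* (-1.76) at 2.85 and 3.34 CPM and at 0.823 and 0.350 CPM, and the noncoding *AC093866.1* (-1.68) at 5.93 and 4.51 CPM and at 1.06 and 1.51 CPM. Pseudogenes and readthrough loci share sequence with their parent genes, so these values depend on how reads were assigned and are uncertain. By position, the falls included 13 of 737 tested genes on chromosome 7, 8 of 383 on chromosome 22, 6 of 379 on chromosome 20 and 13 of 1028 on chromosome 19, compared with 0.641% of all genes. Of the rises, 14 of 1545 were on chromosome 1 and 8 of 826 on chromosome 11 (3 of them at the globin locus), compared with 0.463% of all genes.

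Zinc finger genes, which encode the largest family of human transcription factors, were more often lower. Of 412 genes named ZNF, 69 were lower and 10 higher at an FDR below 0.05 (median -0.07), and 4 fell. Beside *ZNF767P* these were *ZNF79*, from 22.2 and 22.6 CPM to 7.30 and 6.77 CPM (log2 fold change -1.61, limma adjusted p = 1.34e-05), *ZNF57*, from 12.4 and 11.3 CPM to 4.55 and 5.46 CPM (-1.17), and *ZNF77*, from 17.1 and 19.5 CPM to 9.24 and 8.47 CPM (-1.0). *ZNF77* was so near a fold change of 2 that it was below it without Control replicate 2 (-0.91) and without dCas9-VPR replicate 2 (-0.94). With 1 library left out, 19 to 38 ZNF genes were lower, the fewest without dCas9-VPR replicate 1. Of 234 solute carrier genes 42 were higher and 13 lower (17.9% and 5.56%, compared with 11.0% and 6.68% of all genes), with 1 rise, that of the vesicular glutamate transporter gene *SLC17A7* (1.12), which went from 3.54 and 3.26 CPM to 8.24 and 7.70 CPM. Without 1 library, 6 to 30 of them were higher, the fewest without Control replicate 2.

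To see where dCas9-VPR stood apart from the other activators, its libraries were compared with the mean of CRISPR-DREAM and SAM in the same fit. At an FDR below 0.05, 1069 genes were higher with dCas9-VPR (7.07%) and 2866 were lower (19.0%), and 1 was higher and 161 were lower by more than a fold change of 2. Without 1 library the FDR counts were 297 to 1347 higher and 982 to 3185 lower, the fewest without dCas9-VPR replicate 2. The fold changes relative to Control of all 3 activators rest on the same Control libraries, so they are given side by side. Past the threshold with CRISPR-DREAM and SAM were 55 and 53 of the 70 rises and 54 and 50 of the 97 falls. Of all 15122 genes tested, 309 with CRISPR-DREAM and 588 with SAM were past it as higher, and 76 and 69 as lower. The shared Control libraries favor such an overlap, and their part in it was not tested. List medians with dCas9-VPR, CRISPR-DREAM and SAM were 0.35, 0.24 and 0.35 for collagens and -0.16, -0.14 and -0.21 for ribosomal proteins. They were 0.35, 0.52 and 0.54 for antigen presentation, 0.23, 0.17 and 0.08 for glycolysis, and -0.23, -0.26 and -0.23 for the integrated stress response. *HBG2* was at 7.09 with dCas9-VPR, 10.66 with CRISPR-DREAM and 8.98 with SAM on the log2 scale, and the difference of dCas9-VPR from the mean of the others was -2.73 (standard error 0.15, limma adjusted p = 0.000115). *S100A16* was at 2.43, 4.42 and 3.43, and *LEFTY2* at 2.15, 3.05 and 3.29, and both were lower with dCas9-VPR (differences -1.49 and -1.02, limma adjusted p = 0.000165 and 0.00125). *S100A1* was at 2.79, 3.82 and 1.85, and lay between the others (difference -0.04, limma adjusted p = 0.872). Of the 70 rises, 33 were lower with dCas9-VPR than the mean of the others and 10 were higher, and of the 97 falls, 26 were lower and 1, *PLK2*, was higher. *PLK2* was at -2.18, -2.71 and -2.35 (difference 0.35, limma adjusted p = 0.0316).

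**Figure D4:**
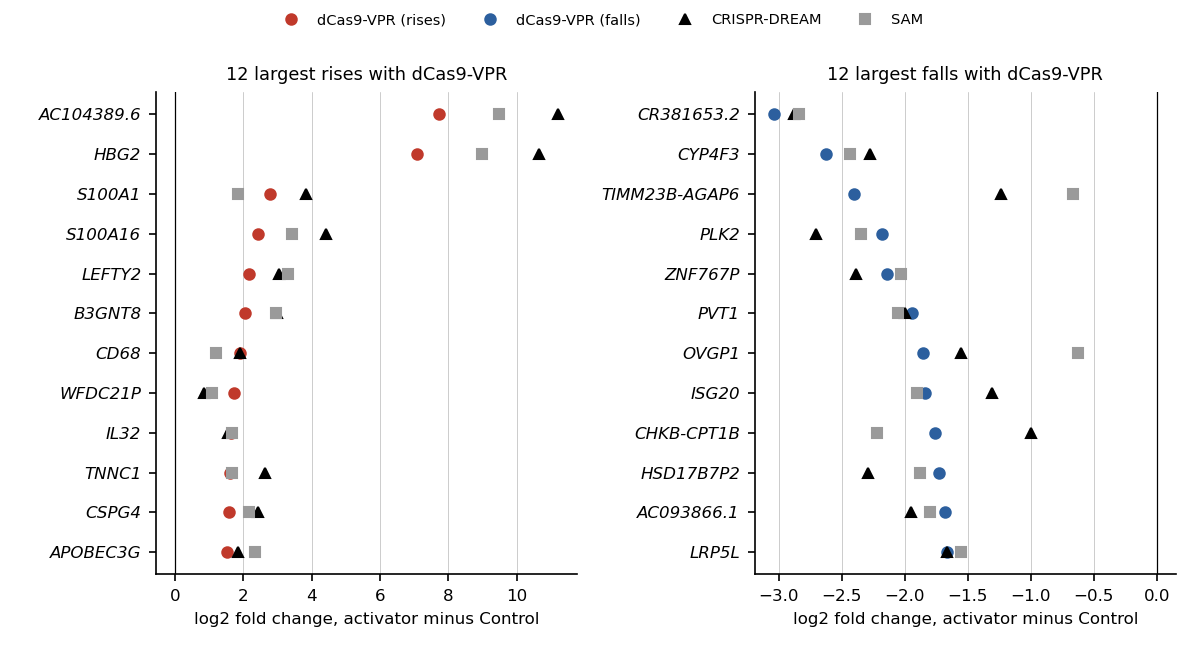
Log2 fold changes relative to the same 2 Control libraries with dCas9-VPR (circles), CRISPR-DREAM (triangles) and SAM (squares) for the 12 largest rises and 12 largest falls with dCas9-VPR. At *HBG2* dCas9-VPR (7.09) is left of SAM (8.98) and CRISPR-DREAM (10.66), and at *TIMM23B-AGAP6* its fall (-2.40) is larger than those of the others (-1.24 and -0.66).

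Some changes were larger with dCas9-VPR than with the other activators. *WFDC21P* was at a log2 fold change of 1.74 with dCas9-VPR and 0.86 and 1.09 with CRISPR-DREAM and SAM (difference from their mean 0.76, limma adjusted p = 0.0047). Among the falls, *SNHG17* was at -1.61, -0.85 and -0.65 (difference -0.86, limma adjusted p = 0.000187), *TRIB3* at -1.03, -0.51 and -0.60 (difference -0.48, limma adjusted p = 0.000535) and *DDIT3* at -1.51, -1.12 and -1.09 (difference -0.40, limma adjusted p = 0.00339). The integrated stress response list as a whole was not shifted to 1 side of the other activators (median difference -0.02). Of its 26 genes, 6 were lower and 4 higher, compared with 19.0% and 7.07% of all genes. Of the 23 genes of the SNHG and *GAS5* list, 9 were lower and 0 higher (median difference -0.20). Some further genes, singled out after their values were seen, were near the Control level with the other activators. *BST2* was at 6.19 and 5.44 CPM in Control, 12.2 and 10.7 CPM with dCas9-VPR and 5.43 to 6.64 CPM in the 4 other libraries (difference 0.90, limma adjusted p = 0.000402). *IFITM1* was at 12.2 and 13.7 CPM in Control, 18.9 and 21.1 CPM with dCas9-VPR and 12.7 to 13.2 CPM in the 4 other libraries (difference 0.61, limma adjusted p = 0.000975). The list of 22 interferon-stimulated genes was not shifted relative to the other activators (median difference 0.01). In it 2 genes were higher and 2 lower, compared with 7.07% and 19.0% of all genes. *C7orf61* was at 1.21 and 1.13 CPM in Control, 0.229 and 0.321 CPM with dCas9-VPR and 1.10 to 1.44 CPM in the 4 other libraries (difference -1.21, limma adjusted p = 0.000832).

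Mitosis genes were higher with dCas9-VPR than with the other activators. They encode the cyclins, kinases and spindle proteins that take cells through division. Relative to Control, 1 of 25 was higher with dCas9-VPR and 0 were lower, with a median log2 fold change of 0.07, whereas the medians were -0.40 with CRISPR-DREAM and -0.35 with SAM. In the direct comparison, 24 of the 25 were higher with dCas9-VPR than the mean of the others (median difference 0.43), relative to 7.07% of all genes, and 18 to 24 were higher with 1 library left out. *KIF20A*, a kinesin needed for cytokinesis, was at 70.1 and 69.2 CPM in Control and 69.6 and 70.0 CPM with dCas9-VPR, and ranged from 37.2 to 42 CPM in the 4 other libraries (difference 0.79, standard error 0.06, limma adjusted p = 6.06e-05). *PLK1*, the main mitotic polo-like kinase gene, was at 158 and 164 CPM in Control, 165 and 172 CPM with dCas9-VPR and 105 to 117 CPM in the 4 other libraries (difference 0.59, limma adjusted p = 6.34e-05). *CDC20*, an activator of the anaphase-promoting complex, was at 170 and 180 CPM in Control, 160 and 164 CPM with dCas9-VPR and 102 to 119 CPM in the 4 other libraries (difference 0.55, limma adjusted p = 0.000165). *MKI67* (difference 0.43) was the member that did not pass.

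**Figure D5:**
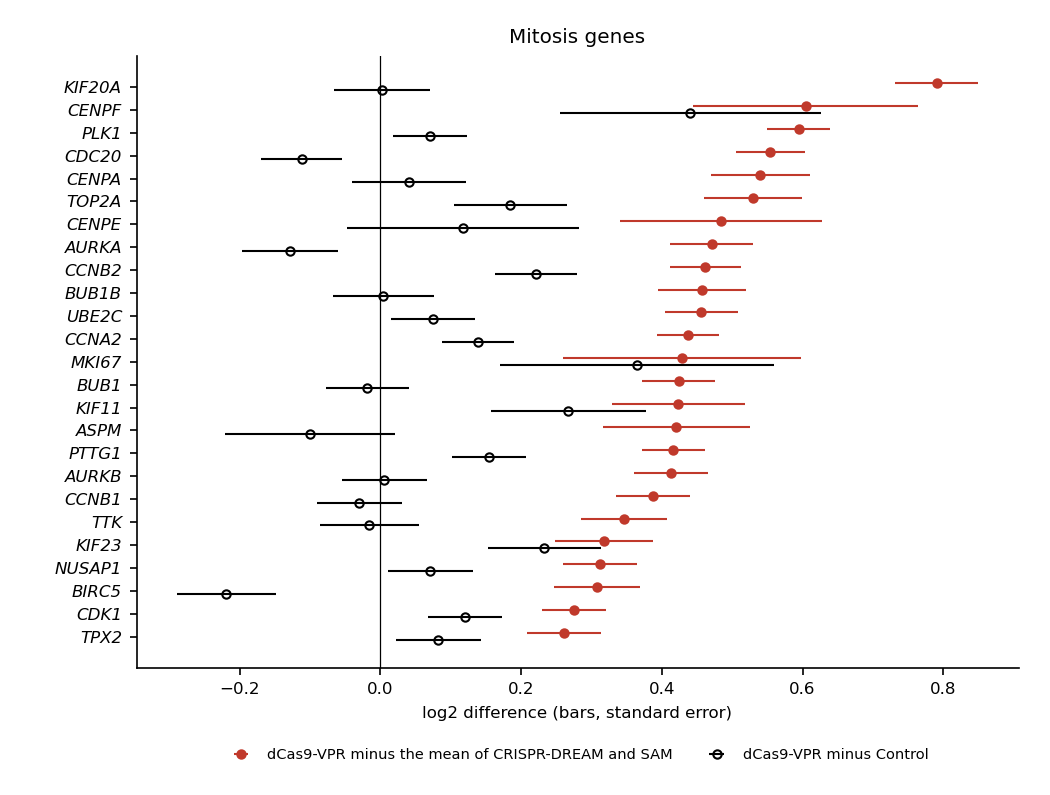
Log2 differences of 25 mitosis genes for dCas9-VPR minus the mean of CRISPR-DREAM and SAM (filled) and for dCas9-VPR minus Control (open), with standard errors of the limma fit as bars. The filled points are all above 0, with *KIF20A* highest at 0.79, and the open points lie on both sides of 0, from *BIRC5* at -0.22 to *CENPF* at 0.44.

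DNA replication genes showed a related pattern with smaller differences. Relative to Control, 8 of 33 were lower and 1 was higher (median -0.10), and relative to the other activators 20 were higher and 1 lower (median difference 0.20). *RRM2*, a ribonucleotide reductase subunit gene, was at 183 CPM in both Control libraries, 219 and 208 CPM with dCas9-VPR and 125 to 140 CPM in the 4 other libraries (difference 0.68, limma adjusted p = 2.33e-05). *PCNA*, the sliding clamp of DNA polymerase, was at 445 and 437 CPM in Control, 410 and 415 CPM with dCas9-VPR and 312 to 327 CPM in the 4 others (difference 0.37, limma adjusted p = 0.000326). The count was 8 without dCas9-VPR replicate 1 and 7 without dCas9-VPR replicate 2. *CDKN1A*, which encodes the inhibitor p21, was at 153 and 154 CPM in Control, 173 and 186 CPM with dCas9-VPR and 105 to 114 CPM in the 4 others (difference 0.71, limma adjusted p = 4.12e-05).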

How the data were processed

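Transcriptomes of transfected HEK293T cells (4 groups, 2 libraries per group) were used. Per the labels and methods, STAR 2.7.3a was used for alignment to hg38 with Gencode release 36, and Bayesian quantification followed. The authors deposited CPM, to which 0.0001 had been added. A gene at that offset is called listed at 0. The authors used DESeq2 for differential expression, and the deposited values are not whole reads, so no count model was run here. The methods name a total RNA kit, whereas the labels give polyA RNA.

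A limma model (version 3.58.1, R 4.3.3) with robust variance moderation and a mean trend, 1 coefficient per group, 8 libraries and 4 residual degrees of freedom was applied to log2(CPM + 0.5) of 15122 of 19770 genes, after testing on simulated data. CPM sums to a fixed total, so a level is relative to the other genes of a library. Named genes are *HBG1* and *HBG2*, the NF-κB subunits, the 12 largest rises and falls with at least 3 CPM, the 6 largest at 10 CPM or more in both groups, called list members, and the 6 largest differences from the other activators. The members, the 59 fixed lists and the tests were chosen with earlier results of these data known, and further lists were chosen after values were seen. End positions are those of the files minus 1. *HBB* and *HBD* are not analysed here. Alternatives were other pseudocounts, filters, scaling, thresholds, a replicate block, only the 4 libraries compared, and leaving out each library.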

Additional observations from a re-analysis of the deposited data

Results flagged for a closer look

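Genes among those named were picked out where dCas9-VPR differed from the mean of CRISPR-DREAM and SAM by more than a fold change of 2 in the limma fit, with all values as log2 differences. *CEL*, a lipase gene, was the only gene higher with dCas9-VPR, by 1.04 (limma adjusted p = 0.00411), at 2.66 and 1.84 CPM compared with 1.07 and 0.743 CPM in Control and 0.651 to 1.04 CPM in the 4 other libraries. *MRTFA* (-3.23) and *HSF1* (-2.30) were near the Control level with dCas9-VPR (log2 fold changes 0.16 and -0.10) and were at 2819 and 2691 CPM (*MRTFA*, CRISPR-DREAM) and 1173 and 1230 CPM (*HSF1*, SAM) where the effector carries part of that protein. *PTAFR*, the receptor gene for platelet-activating factor, differed by -2.16, with 1.82 and 1.47 CPM in Control, 0.687 and 0.802 CPM with dCas9-VPR and 3.61 to 7.19 CPM in the 4 other libraries. It was lower than Control with dCas9-VPR (log2 fold change -0.78, limma adjusted p = 0.0116) and higher with the others (1.05 and 1.72). At the target locus the differences were -2.73 for *HBG2*, -2.62 for *AC104389.6* and -2.62 for *HBG1*. The remaining ones were *S100A16* (-1.49), *TIMM23B-AGAP6* (-1.45) and *LEFTY2* (-1.02).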

How the results depend on the processing

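The log2 fold change of *HBG2* was 6.68 to 7.52 over the alternatives, and 6.88 to 7.30 without each replicate, and that of the sum of *HBG1* and *HBG2* was 6.69 to 7.52 and 6.88 to 7.30, all past the threshold. The count of 167 genes past the threshold relative to Control became 309 (154 higher) with a pseudocount of 0.1, 98 with a pseudocount of 1, 41 of 10183 with a filter at 10 CPM, 672 (366 higher) at a fold change above 1.5, 2666 with no fold change threshold and 16 with 2-fold as the null value. It was 145 to 211 without each replicate. The count of 162 relative to the mean of CRISPR-DREAM and SAM became 311 and 71 with the same pseudocounts and 22 with the filter, and was 141 to 189 without each replicate. Median-of-ratios scaling gave 177 (60 higher) and 141 and moved the median of all genes from 0.06 to 0.01. Of the 167 calls, 157 were shared under that scaling and 124 to 151 without each replicate, and all kept their direction. With the replicate block there were 171 and 161 calls, but 3735 higher and 1939 lower genes by FDR alone, and 68 in place of 36 lower ribosomal protein genes. The labels do not say what a replicate number marks. The differences between replicates correlated at 0.133 between Control and dCas9-VPR and at 0.133 to 0.326 over the 6 pairs of groups, and with 2 numbers the pairing was not established.

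Of 611 values of the named genes under alternatives, 570 kept their direction and their side of the threshold, 28 lost the call, 5 gained it and 8 changed sign. All 8 were in NF-κB subunit genes near 0. Under median-of-ratios scaling *NFKB1* was at -0.0371 and *RELB* at -0.0528. Without each replicate, *NFKB1* was at -0.0411 to 0.0775, *NFKB2* at -0.0421 to 0.0241 and *RELB* at -0.0394 to 0.0432. The cause was not tested.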
